A study of Rattus norvegicus with 15 samples.

Results

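The genes described here are the 200 long noncoding RNA (lncRNA) genes with the highest mean level in rat multifidus muscle, the deep paraspinal muscle beside the lumbar vertebrae. They were chosen from the 37991 genes of the deposited table. Of these, 7259 carry the biotype lncRNA, 3129 of which had a count in any library, and H19 and Meg3 were left out before ranking. Genes were ranked by mean TPM (a share of all transcripts corrected for gene length) over 15 libraries, so the levels themselves are a description of the choice. The member of rank 200 had a mean of 1.32 TPM (LOC103691931, 1.3228), and the next gene, LOC100912293, had 1.3166. No comparison of groups entered the choice, and each group's own mean TPM would have kept 163 of the 200 genes in every group. A gene could still be chosen through the libraries where it was high, as LOC108352323 was and, in part, Fndc4.

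Multifidus RNA came from male Sprague Dawley rats of 12 weeks, labelled wild type, in all 5 groups. The control group (2 libraries) had no surgery. The surgery group (2 libraries) had a left hemilaminectomy with ligation of a lumbar spinal nerve and no treatment afterwards. The pMT group (4 libraries) had the same surgery and, 2 weeks later, left paraspinal injections of human plasma-derived mitochondria (pMT), 25 μg in 100 μL at each site and 50 μg per rat, with tissue taken after another 2 weeks. The VitD group (3 libraries) was given cholecalciferol after surgery, 150 μg per site and 300 μg per rat, and the pMT/VitD group (4 libraries) was given both agents after surgery at these doses. The times of injection and of tissue collection in the groups with vitamin D are not given in the sources used here. No library is labelled as coming from an operated rat injected with buffer alone.

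Long noncoding RNAs are transcripts without a long open reading frame. Some act as RNA, on chromatin or on other transcripts. Others serve mainly as precursors, such as the host genes whose introns yield small nucleolar RNAs (snoRNAs) that guide modification of ribosomal RNA. A further class, well known from muscle, was annotated as noncoding until it was found to encode a micropeptide, a very small protein that often sits in the membranes of mitochondria or of the sarcoplasmic reticulum. The biotype in an older annotation thus covers RNA genes, small coding genes and uncharacterised loci.

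Total counts ranged from 52342134 to 73557878 per library (median 64352162), and the members took 0.186% to 0.231% of them. The skeletal muscle markers Acta1, Ckm, Mb, Myh1, Myh2, Myh4, Des and Tnnt3 were abundant in every library. The B and plasma cell markers Cd79a, Cd79b and Ms4a1 were each at most 0.800 CPM (counts relative to the library total, scaled by the TMM method). Libraries differed in the mitochondrial share of counts (10.7% to 22.6%). They also differed in the Spearman correlation, across genes, of gene length with the deviation from the mean log2 CPM, which ran from -0.39 to 0.45. Length here and in the length trend below is a relative value, the mean counts of a gene divided by its mean TPM over these same libraries. It is not an annotated length. The libraries pMT 4, pMT/VitD 1 and pMT/VitD 2 stood together at -0.32, -0.39 and -0.39. Counts of called genes are also given without both libraries numbered 4. No pair of libraries agreed within sampling noise. The median per-gene chi-square of their counts was 1.37 to 25.8 over the 17 pairs within groups. Nothing in the labels states how many animals each library holds, so p-values measure the spread between libraries.

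The sequences below are the start regions of some of the members called in the group comparisons, and only members with a promoter entry could be shown. They were taken from the RefSeq promoter table (build GRCr8), which held 94 of the 200 members, and each runs 5′ to 3′ on the gene's strand from 250 bases before to 50 bases after the annotated start. Capitals mark the E-box CAGCTG, a palindrome bound by muscle regulatory factors among other proteins, and the TATA-box letters TATAAA in either orientation (TTTATA on the printed strand where the match is on the other). LOC108352323 and LOC108351178 were called higher in the surgery group than in the control group, LOC102550180 was called across the 5 groups, and LOC102551138 and LOC102550477 were lower in the VitD group than in the control group.
LOC108352323 (chr11:55575748-55576047, minus strand): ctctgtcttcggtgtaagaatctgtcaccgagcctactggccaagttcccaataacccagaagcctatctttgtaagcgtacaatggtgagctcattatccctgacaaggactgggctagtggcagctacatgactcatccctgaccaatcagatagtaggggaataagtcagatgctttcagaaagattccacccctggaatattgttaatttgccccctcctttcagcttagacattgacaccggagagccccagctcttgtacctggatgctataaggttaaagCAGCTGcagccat
LOC108351178 (chr6:26371044-26371343, plus strand): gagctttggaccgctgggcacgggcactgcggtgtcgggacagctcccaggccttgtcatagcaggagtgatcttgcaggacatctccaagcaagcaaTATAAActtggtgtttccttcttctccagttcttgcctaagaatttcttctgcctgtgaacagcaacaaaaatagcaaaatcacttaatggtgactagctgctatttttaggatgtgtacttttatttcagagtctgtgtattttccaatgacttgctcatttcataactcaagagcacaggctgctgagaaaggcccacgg
LOC102550180 (chr15:31884908-31885207, plus strand): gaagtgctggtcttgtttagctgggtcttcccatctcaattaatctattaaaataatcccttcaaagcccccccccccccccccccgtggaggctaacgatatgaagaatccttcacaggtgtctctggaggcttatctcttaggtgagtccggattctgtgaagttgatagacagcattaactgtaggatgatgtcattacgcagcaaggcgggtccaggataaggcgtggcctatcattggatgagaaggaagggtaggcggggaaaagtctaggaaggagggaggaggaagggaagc
LOC102551138 (chr12:22314400-22314699, minus strand): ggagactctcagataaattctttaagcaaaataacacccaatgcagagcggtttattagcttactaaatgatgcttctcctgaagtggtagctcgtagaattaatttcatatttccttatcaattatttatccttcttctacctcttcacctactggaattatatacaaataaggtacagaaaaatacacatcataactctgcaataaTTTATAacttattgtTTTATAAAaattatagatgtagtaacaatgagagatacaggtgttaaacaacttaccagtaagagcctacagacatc
LOC102550477 (chr9:84314272-84314571, minus strand): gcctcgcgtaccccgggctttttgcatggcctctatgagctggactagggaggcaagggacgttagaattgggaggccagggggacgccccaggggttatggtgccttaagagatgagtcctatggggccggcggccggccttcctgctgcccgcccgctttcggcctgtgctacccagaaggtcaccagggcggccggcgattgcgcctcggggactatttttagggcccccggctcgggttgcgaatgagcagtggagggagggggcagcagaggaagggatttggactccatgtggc
CAGCTG stood at base 38 after the start of LOC108352323 and in none of the other 4 windows. TATAAA stood 152 bases before the start of LOC108351178, and LOC102551138 held 3 matches between 42 and 25 bases before its start, the last 2 overlapping. Among members with an entry, 23 of 94 windows (24.5%) held CAGCTG and 22 (23.4%) held TATAAA, compared with 15.1% and 14.3% of the windows of all 27457 genes in the table. A match of letters is a description and not a binding site.

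The members were dominated by a few genes. The 10 most abundant took 58.0% to 69.4% of the members' summed TPM in a library, 7 members had a mean of at least 100 TPM, 40 had at least 10 and 57 had under 2. All 200 together made up 0.267% to 0.359% of the TPM of a library and 89.5% to 92.8% of the TPM of all lncRNA genes. The plot of TPM by library shows this order.

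**Figure D1:**
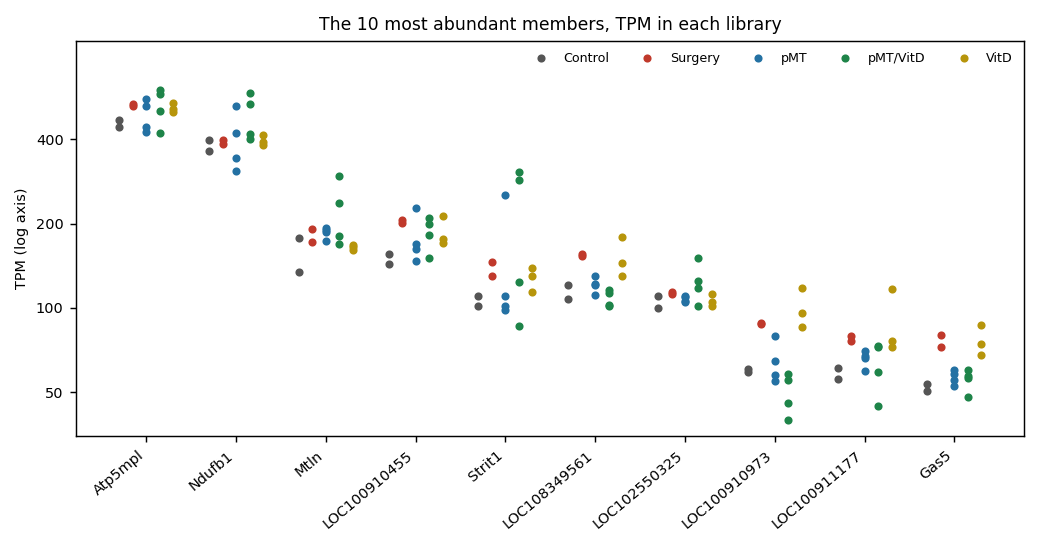
TPM on a log axis of the 10 most abundant members in each of 15 libraries, with 1 point per library coloured by group. Atp5mpl lay between 421 and 599 TPM and Gas5 between 48.0 and 87.0 TPM, and the 3 high points of Strit1 are the libraries pMT 4, pMT/VitD 1 and pMT/VitD 2.

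Small coding genes led the list. Atp5mpl, a small subunit of the mitochondrial ATP synthase listed as LOC100912557, had the highest level, from 421 to 599 TPM (median 515). Ndufb1, an accessory subunit of respiratory complex I, followed at 307 to 587 TPM (median 398). The newer GRCr8 annotation classes both as protein-coding, and it holds 116 of the 200 gene identifiers, with 102 classed as lncRNA, 11 as protein-coding and 3 as pseudogenes. The other coding genes are Tmem80, Rhno1, Zfp120l1, Smim27, Fndc4 and 4 with locus names. Mtln, which encodes the mitochondrial micropeptide mitoregulin, ranged from 134 to 296 TPM (median 178). Strit1, which encodes DWORF, a micropeptide that activates the calcium pump of the sarcoplasmic reticulum, ranged from 86.4 to 306 TPM (median 124).

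LOC100910455, of rank 4 at 144 to 227 TPM, is described in the table as like ribosomal protein L19. Its CPM was 6.91% to 11.4% of that of Rpl19 in the same library, and since the counting could split reads between copies its level is uncertain. LOC108349561, LOC102550325 and LOC100910973 are uncharacterised, with medians of 121, 110 and 60.4 TPM. Neighbours in the order of levels mostly overlapped: the ranges of Mtln, LOC100910455, Strit1 and LOC108349561 shared the interval from 144 to 179 TPM.

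Pairs of members were near-identical in counts. LOC103693891 and LOC102554645 differed by 0.577% on average, and LOC100911627 and LOC103693265 by 1.34%, with an SD of the log2 ratio of at most 0.0252 over 15 libraries. LOC108352337 and LOC102557200 differed by 12.4%, and LOC108348190 and LOC103691699 by 13.8%. How reads that match several genes were counted is not stated, so values of such pairs are uncertain.

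Host genes of snoRNAs formed the best characterised RNA class. Of the 200 members, 9 held snoRNA genes inside their span in GRCr8 and none held a miRNA gene. Gas5, a growth-arrest transcript with 9 snoRNA genes inside, had rank 10 at 48.0 to 87.0 TPM (median 58.0). LOC100911177, which holds Snord12 and Snord12c, ranged from 44.8 to 116 TPM (median 70.0). The others were LOC100909539 (Snord123), LOC102556004 (Snord87), LOC100912041 (Snord26, Snord27 and Snord30 among 7), LOC102549726 (Snord48 and Snord52), LOC100909675 (Snord93), LOC102547700 and LOC100911266. Start regions of the 7 with a promoter entry are shown since host genes of this kind often begin with a run of pyrimidines. Each has 30 bases before the annotated start in lower case and 30 bases from it in capitals.
LOC100911177 (chr3:176211300-176211359, plus strand): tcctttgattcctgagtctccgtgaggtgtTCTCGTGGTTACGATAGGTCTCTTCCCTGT
Gas5 (chr13:75836933-75836992, plus strand): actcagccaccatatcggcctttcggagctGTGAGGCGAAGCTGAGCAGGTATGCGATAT
LOC100912041 (chr1:215048305-215048364, plus strand): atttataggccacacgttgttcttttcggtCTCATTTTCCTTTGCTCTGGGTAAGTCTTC
LOC102549726 (chr20:3881178-3881237, plus strand): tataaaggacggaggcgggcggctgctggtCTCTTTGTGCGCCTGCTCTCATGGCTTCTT
LOC102547700 (chr14:85622756-85622815, minus strand): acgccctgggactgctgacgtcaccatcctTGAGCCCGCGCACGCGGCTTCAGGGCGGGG
LOC100909675 (chr4:12184174-12184233, minus strand): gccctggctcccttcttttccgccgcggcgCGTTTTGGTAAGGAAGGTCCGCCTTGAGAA
LOC100911266 (chr3:29865575-29865634, minus strand): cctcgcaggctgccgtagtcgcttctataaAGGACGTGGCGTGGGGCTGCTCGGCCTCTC
A run of at least 5 letters C or T that begins with C within 5 bases of the annotated start was found in 1 of these 7, LOC102549726, from base 1. The same run was found in 14 of the 94 members with an entry (14.9%) and in 17.0% of all genes in the table.

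Across the 5 groups, 18 of the 200 members passed the quasi-likelihood test of edgeR at an adjusted p under 0.05, where 11.8% of the 17201 genes tested passed. The members' share was 9.0%, near that background. The 18 held both genes of the near-identical pair LOC100911627 and LOC103693265. All 200 members were tested, and 193 of them had at least 10 counts in every library. The smallest edgeR adjusted p were 0.000145 for LOC108352323, 0.000261 for LOC108351178, 0.000706 for LOC100912629 and 0.00246 for LOC102549714. None of the 10 most abundant members was called, with edgeR adjusted p from 0.0767 for LOC102550325 to 0.900 for LOC100911177.

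**Figure D2:**
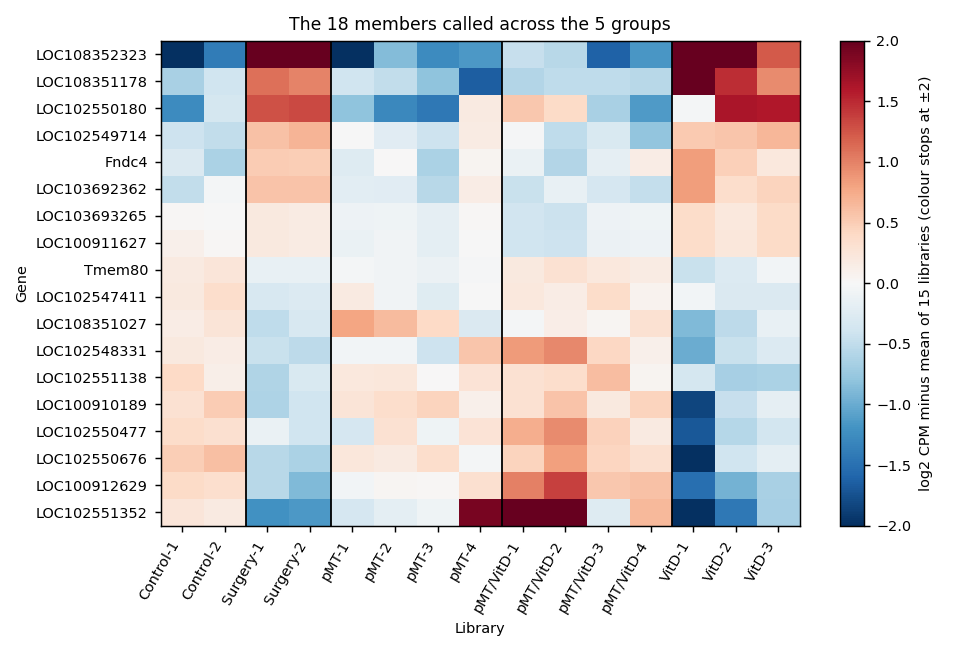
Log2 CPM minus the mean of the 15 libraries for the 18 members called across the 5 groups, with libraries in columns ordered by group and genes in rows ordered by the difference between the VitD and control groups. LOC108352323 is high in the surgery and VitD columns, and LOC102551352 is high in pMT 4, pMT/VitD 1 and pMT/VitD 2.

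In 7 of the 200 members, all 5 surgery and VitD libraries were higher than all 10 control, pMT and pMT/VitD libraries, and 6.81% of all genes tested did the same. In another 7, all 5 were lower, where the background was 4.02%. This arrangement was looked for after the values had been seen, and the members' shares of 3.5% and 3.5% lay below the background. LOC108352323 and, in part, Fndc4 owe their place among the members to the libraries where they were high. The 7 higher were LOC108352323, LOC108351178, LOC102549714, LOC103692362, Fndc4, LOC100911627 and LOC103693265, the last 2 being a near-identical pair. The 7 lower were LOC100910189, LOC100912629, LOC102550676, LOC102551138, LOC102551352, LOC103693349 and LOC108351802.

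In the surgery group, 3 members were higher than in the control group and none lower, 1.5% of the members, where 1.25% of all genes were called higher and 0.296% lower (1.55% in either direction). LOC108352323, an uncharacterised gene of rank 155, stood at 0.110 and 0.250 CPM without surgery, against 4.41 and 3.57 CPM after surgery. It is a member only through the surgery and VitD groups, with means of 4.11 and 5.61 TPM. Its means of 0.144, 0.242 and 0.260 TPM in the control, pMT and pMT/VitD groups lie under the 1.32 TPM of rank 200. Its differences are thus tied to its choice as a member. In the VitD libraries it had 9.99, 4.63 and 1.54 CPM. In the pMT libraries it lay between 0.152 and 0.358 CPM, and in the pMT/VitD libraries between 0.215 and 0.475 CPM, so neither group overlapped the surgery group. The difference between surgery and control was 4.46 ± 0.74 on the log2 scale (SE, n = 2 and 2 libraries, edgeR adjusted p = 0.0130). These control levels rest on 7 and 15 reads, those after surgery on 262 to 341, so counting error is larger in the controls. The gene overlaps St3gal6, which was not called between surgery and control (log2 difference -0.48, edgeR adjusted p = 0.487).

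LOC108351178 was high in the same 5 libraries. Control values were 1.21 and 1.45 CPM, surgery values 4.08 and 3.81 CPM, and VitD values 7.67, 5.30 and 3.68 CPM. The 8 libraries with pMT lay between 0.610 and 1.45 CPM, within or below the range of the controls. Its difference between surgery and control was 1.57 ± 0.35 on the log2 scale (edgeR adjusted p = 0.0412). The gene overlaps Ttc27, which was lower in the pMT group than in the surgery group (log2 difference -0.79, edgeR adjusted p = 0.0348). Handling of strand is not stated, so reads of the overlapping genes cannot be told apart.

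LOC102549714 was the third gene called between surgery and control. Control values of 3.44 and 3.27 CPM stood against 6.93 and 7.39 CPM after surgery, a log2 difference of 1.09 ± 0.22 (edgeR adjusted p = 0.0299). The VitD libraries lay at 6.63, 6.78 and 7.25 CPM, and the pMT and pMT/VitD libraries between 2.67 and 5.14 CPM. LOC102550180, called across the 5 groups, was at 0.836 and 1.57 CPM in the controls and 4.85 and 4.96 CPM after surgery, and its pairwise difference missed the threshold (log2 difference 2.03 ± 0.64, edgeR adjusted p = 0.123). Its VitD libraries were split, at 1.95 CPM in VitD 1 and 6.23 and 6.09 CPM in the other 2.

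LOC102549714, LOC103692362 and LOC100912629 have no promoter entry. The calls between surgery and control rest on 2 libraries in each group. Leaving out any of the control or surgery libraries left 0 members called, and leaving out VitD 1, which enters only through the shared estimate of spread, gave 14. The share of all genes called with a library left out is not reported here. A set of 8 denervation markers (Chrna1, Chrng, Chrnd, Myog, Myh3, Ncam1, Runx1 and Gadd45a) had summed levels of 81.2 to 93.8 CPM in the control, 482 to 491 in the surgery, 84.0 to 129 in the pMT, 88.3 to 108 in the pMT/VitD and 237 to 1231 CPM in the VitD libraries. Much of that sum was Myh3, with 326 and 335 CPM in the surgery and 993, 343 and 113 CPM in the VitD libraries. Myog was also higher in these libraries (44.8 to 59.1 CPM) than in the others (18.3 to 28.6 CPM). The 4 fibroblast markers summed to more in the surgery and VitD libraries (3451 to 6470 CPM) than in all others (1740 to 2756 CPM). So did the 6 macrophage markers (289.8 to 430.3 against 143.7 to 199.7 CPM). Over all libraries the collagen genes Col3a1 (853 to 3907 CPM) and Col1a1 (309 to 1779 CPM) varied most among the fibroblast markers. Dcn (539 to 827 CPM) and Pdgfra (25.5 to 44.5 CPM) varied less, so that sum does not show a difference in fibroblasts. The sum of 4 T cell markers separated the same libraries, at 58.4 to 73.5 against 19.3 to 39.7 CPM. Most of that sum was Cd4 (18.7 to 71.2 CPM over all libraries). Cd3e, Cd3d and Cd8a were at most 0.503, 0.409 and 1.44 CPM, so the sum does not show a difference in T cells. The summed skeletal muscle markers were lowest in VitD 1 (100571 CPM) and reached 177588 CPM in pMT/VitD 3. The part of these markers in the members' differences was not tested. In tissue RNA, fewer cells of a type and less RNA per cell cannot be told apart.

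**Figure D3:**
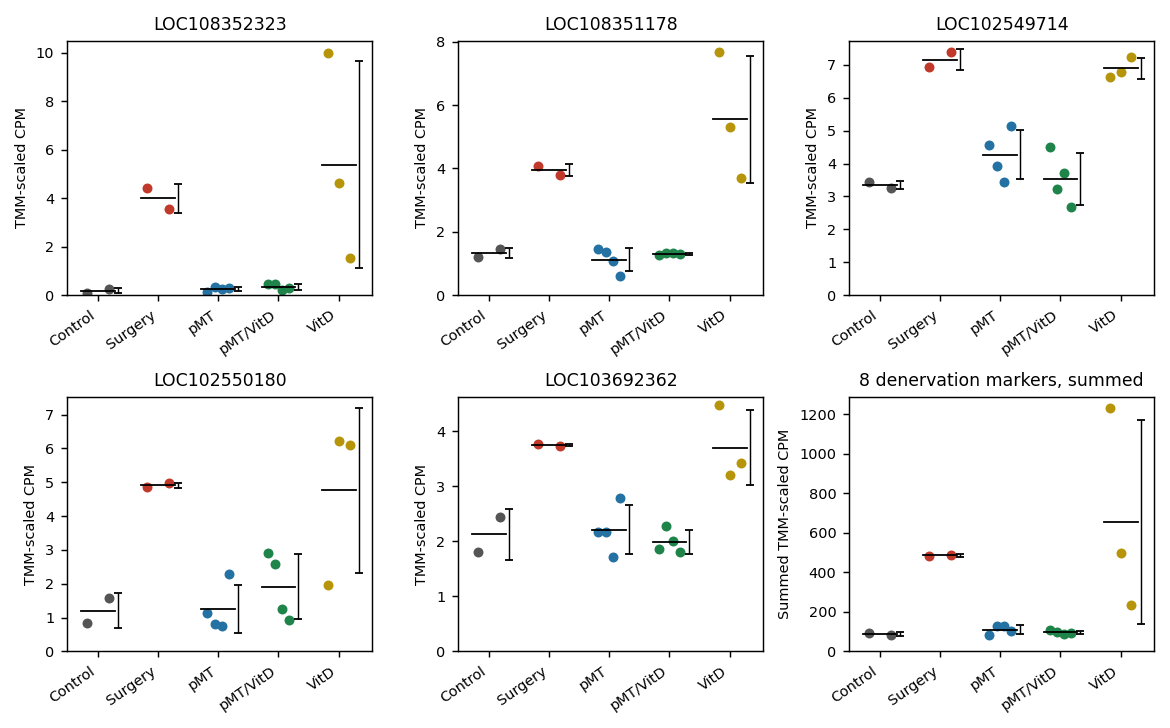
TMM-scaled CPM of 5 members and the summed CPM of 8 denervation markers in each library, by group, with 1 point per library, a line at the group mean and an error bar of 1 SD. Surgery and VitD libraries lie above control libraries in every panel, and the pMT and pMT/VitD libraries of LOC108352323 lie below 0.5 CPM.

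In the VitD group, 16 members differed from the control group (8.0%), where 8.67% of all genes were called. Of these, 6 were higher (3.0%, background 5.48%) and 10 lower (5.0%, background 3.20%). Leaving out either control library left 0 members called. The 3 members called in the surgery group were higher here too, with log2 differences of 4.90 ± 0.73 for LOC108352323, 2.06 ± 0.33 for LOC108351178 and 1.04 ± 0.21 for LOC102549714 (edgeR adjusted p = 0.00334, 0.00470 and 0.0114). Both comparisons share the control libraries and are not independent. LOC103692362, LOC102549726 and Fndc4 made up the other 3 higher genes. Fndc4, classed as protein-coding in GRCr8 and encoding a secreted fibronectin type III protein, had 1.63 and 1.28 CPM in the controls and 3.57, 2.77 and 2.32 CPM in the VitD libraries, a log2 difference of 0.99 ± 0.26 (edgeR adjusted p = 0.0342). Its means in the control and pMT/VitD groups, 1.05 and 1.20 TPM, lie under the 1.32 TPM of rank 200. Those in the pMT, surgery and VitD groups were 1.38, 2.52 and 2.58 TPM. The difference for Fndc4 is thus also tied to its choice as a member.

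LOC102549726, the snoRNA host gene with the pyrimidine run shown above, had 2.63 and 2.53 CPM in the control libraries and 3.61, 3.93 and 4.09 CPM in the VitD libraries. Its log2 difference was 0.58 ± 0.16 (edgeR adjusted p = 0.0419), and it was the only called member among the 9 with snoRNA genes inside, near the background of 8.67%. The median log2 difference of these 9 was 0.24, with 5 of 9 higher. Gas5 had 17.5 and 18.4 CPM in the controls and 23.6, 20.8 and 19.01 CPM in the VitD libraries, and did not pass the test (edgeR adjusted p = 0.468). Of the 11 core proteins of snoRNA particles listed, 10 were found and tested, and only Nop58, which binds the box C/D class of snoRNAs, was called (log2 difference 0.59, edgeR adjusted p = 0.0443), a count near the same background.

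Lower members in the VitD group included LOC100912629, LOC100910189, LOC102550676 and LOC102550477. LOC100912629, which overlaps the microtubule gene Mapt, had 5.74 and 5.599 CPM in the controls and 1.56, 2.30 and 2.82 CPM in the VitD libraries, a log2 difference of -1.35 ± 0.26 (edgeR adjusted p = 0.00956). The difference for Mapt itself was -0.41 (edgeR adjusted p = 0.170). LOC102550676 had 12.3 and 13.3 CPM in the controls and 2.12, 6.65 and 7.64 CPM in the VitD libraries. In each of these genes VitD 1 was the lowest library of all 15.

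LOC100910189, of rank 19, was among the more abundant of the lower members. It had 48.8 and 56.6 CPM in the controls and 11.1, 28.7 and 35.1 CPM in the VitD libraries, a log2 difference of -1.08 ± 0.31 (edgeR adjusted p = 0.0442). The surgery libraries lay at 25.7 and 30.1 CPM, and the 8 libraries with pMT between 42.4 and 59.0 CPM, without overlap. Its nearest protein-coding gene, Ctxn3, moved the other way (log2 difference 3.22, edgeR adjusted p = 0.00238). LOC102550477 overlaps Des, the gene of the muscle intermediate filament desmin, and both were lower in the VitD group, by -1.11 ± 0.32 (edgeR adjusted p = 0.0445) and -0.63 (adjusted p = 0.0278). Reads of that pair cannot be told apart without strand.

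Neighbouring protein-coding genes gave no common direction. Of the 16 members called between VitD and control, 10 had a neighbour that was tested. Of these neighbours, 4 had a difference of the same sign and 3 were called, where 8.67% of all genes were called. For the 9 members called between pMT/VitD and surgery, 6 had a tested neighbour, 4 with the same sign and 1 called (background 7.44%). Among the tested neighbours, 4 of 10 and 3 of 6 overlapped the member, so shared reads could affect their sign. LOC108351027, called across the 5 groups, overlaps Heyl, a transcriptional repressor of the Notch pathway. The log2 difference between VitD and control was -0.69 for the lncRNA gene (edgeR adjusted p = 0.110) and 0.63 for Heyl (edgeR adjusted p = 0.00969).

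Between the pMT and surgery groups, 2 members were called, both lower in the pMT group (1.0%, where 1.55% of all genes were called lower, 0.395% higher and 1.94% in either direction). LOC108352323 fell by 3.86 on the log2 scale, with an SE of 0.54 (n = 4 and 2 libraries, edgeR adjusted p = 0.00256). LOC108351178 fell by 1.80 with an SE of 0.28 (edgeR adjusted p = 0.00613), and its call was lost when either surgery library was left out. The surgery libraries serve in both this comparison and that with the control group, so the opposite signs there are not independent. LOC102550180 differed by -1.99 ± 0.52, which missed the threshold with all libraries (edgeR adjusted p = 0.0669). Without both libraries numbered 4, 8 members were called, where 3.15% of all genes were called, and LOC102550180 was among them (-2.46 ± 0.46, edgeR adjusted p = 0.0159).

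In the pMT/VitD group, 9 members differed from the surgery group (4.5%), where 7.44% of all genes were called. Of these, 4 were lower (2.0%, background 5.03%) and 5 higher (2.5%, background 2.40%). LOC108352323 fell by 3.47 with an SE of 0.54, LOC108351178 by 1.59 with an SE of 0.29, LOC102549714 by 1.02 with an SE of 0.18 and LOC103692362 by 0.91 with an SE of 0.20 (edgeR adjusted p = 0.00271, 0.00580, 0.00580 and 0.0180). LOC103692362, of rank 45, had 3.76 and 3.74 CPM in the surgery libraries and 1.81 to 2.28 CPM in the 4 pMT/VitD libraries.

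The 5 higher members were LOC100912629, LOC102548331, LOC102551138, LOC102547411 and Tmem80. LOC100912629 had 3.01 and 2.41 CPM in the surgery libraries and 8.92, 11.4, 6.41 and 6.66 CPM in the pMT/VitD libraries, a log2 difference of 1.62 ± 0.26 (edgeR adjusted p = 0.00337). All 4 lay above both controls. LOC102548331 had 8.50 and 8.07 CPM after surgery and 20.8, 22.6, 15.4 and 12.4 CPM with both agents (1.10 ± 0.28, edgeR adjusted p = 0.0310). The abundant LOC102547411, of rank 13, differed by 0.50 ± 0.13 (31.3 ± 0.733 against 44.2 ± 4.01 CPM, mean ± SD, edgeR adjusted p = 0.0322). The values of LOC102551138 were 1.42 and 1.75 CPM after surgery and 2.68, 2.76, 3.31 and 2.24 CPM with both agents (0.79 ± 0.19, edgeR adjusted p = 0.0250). Tmem80, a coding gene of a transmembrane protein, differed by 0.37 ± 0.10 (edgeR adjusted p = 0.0471). Leaving out surgery 2 left 1 member called, and leaving out pMT/VitD 4 gave 26, both without a share of all genes to set beside them. Without both libraries numbered 4, 48 members were called (24.0%), where 20.1% of all genes were called. On the same libraries the test across the 5 groups called 73 members, where 29.8% of all genes were called. Surgery against control then gave 8 members (background 4.17%), VitD against control 30 (background 15.1%) and VitD against surgery 0 (background 0.0%).

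Between the VitD and surgery groups, edgeR called 0 members and 0.0% of all genes. No member reached an unadjusted p under 0.05, compared with 139 of the 17201 genes tested, and DESeq2 and the exact test of edgeR also called 0 members. The median log2 difference of the members was -0.04, with 5% below -0.39 and 5% above 0.31. With 3 and 2 libraries this does not show that the groups were alike.

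Between the pMT/VitD and pMT groups, edgeR called 0 members and 0.0% of all genes with all libraries, with 34 members and 1737 genes at an unadjusted p under 0.05. The exact test called 0 members and DESeq2 called 1. Of the 200 members, 164 were higher in the pMT/VitD group, with a median log2 difference of 0.22, where 46.2% of all genes tested were higher (median -0.02). Scaling by library size alone moved the median of all genes to -0.21 and that of the members to 0.04, so direction was read relative to all genes. With the length trend removed, 132 members were higher with a median of 0.11, where 50.7% of all genes were higher (median 0.00).

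The result of that comparison depended on which libraries entered. Without both libraries numbered 4, 58 members were called (29.0%), where 18.3% of all genes were called, and 53 of the 58 were higher in the pMT/VitD group (26.5%, background 9.45%). They included 8 of the 10 most abundant members, with log2 differences such as 0.78 ± 0.13 for Atp5mpl and 1.03 ± 0.17 for Ndufb1 (edgeR adjusted p = 0.00325 and 0.00309). With the dependence on gene length also removed, a step added after the data were seen, 17 members were called (8.5%), where 4.0% of all genes were called. Of the 58, 14 were called both ways, and these held none of the 10 most abundant members. Those 14 included Crnde (log2 difference 1.09, edgeR adjusted p = 0.0257) and the pair LOC103693891 and LOC102554645 (0.995 and 0.985, edgeR adjusted p = 0.0222 and 0.0226). Near-identical pairs entered these counts with both genes. The 58 held that pair, LOC108352337 with LOC102557200, and LOC108348190 with LOC103691699. The pair LOC108352337 and LOC102557200 was also among the 14, so reads shared within pairs can count more than once. Libraries were left out after it was seen which stood apart. The median per-gene chi-square of pMT 4 was 2.54 to 5.38 with pMT/VitD 1 to 3 and 12.7 to 25.8 with the other pMT libraries. That of pMT/VitD 4 was 4.62 to 6.39 with pMT 1 to 3 and 9.45 to 13.8 with the other pMT/VitD libraries. It was lower still with the control libraries, at 3.55 and 3.90. Each was more like those libraries of the other group with pMT than those of its own, so leaving out both sets the groups apart by the choice itself. These counts describe how the result moves and do not replace the comparison over all libraries.

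**Figure D4:**
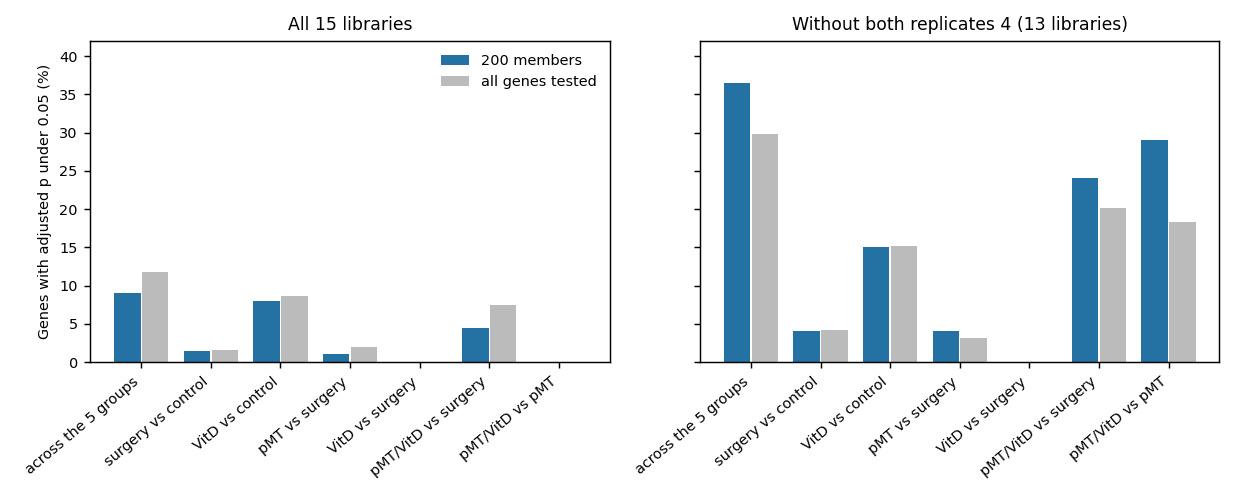
Percent of the 200 members and of all genes tested with an edgeR adjusted p under 0.05 in the test across the 5 groups and in 6 pairwise comparisons, with all 15 libraries and without both libraries numbered 4. With all libraries the members' bars stand below or near the bars of all genes, and without the 2 libraries the pMT/VitD against pMT bars rise from 0.0% to 29.0% for members and 18.3% for all genes.

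Strit1 showed the split between libraries most plainly. It had 62.1 CPM in pMT 4, 69.5 in pMT/VitD 1 and 71.1 in pMT/VitD 2. In the other 12 libraries it lay between 15.1 and 23.5 CPM, controls and surgery included. Both groups with pMT were thus split within themselves, and no group comparison of Strit1 passed the test with all libraries (pMT/VitD against surgery 1.03 ± 0.61, edgeR adjusted p = 0.318).

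LOC102551352 and Crnde, chosen after their values were seen, had the same 3 high libraries. LOC102551352 had 15.1, 20.9 and 22.0 CPM there and 0.737 to 6.33 CPM elsewhere, with the lowest levels in the surgery and VitD libraries (at most 2.54 CPM). Crnde, an lncRNA gene that overlaps the homeobox gene Irx5, had 4.46, 5.36 and 5.30 CPM there and 1.38 to 2.34 CPM elsewhere. Among the coding members, Ndufb1 had 232, 234 and 244 CPM in these libraries and 84.0 to 170 CPM in the others. Mtln had 84.3, 103 and 122 CPM there and 45.3 to 73.1 CPM in the others.

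Other measures moved with these libraries. The 6 slow fibre markers (Myh7, Tnnt1, Tnni1, Tnnc1, Myl2 and Myl3) had summed levels of 7141, 7059.96 and 6421 CPM in pMT 4, pMT/VitD 1 and pMT/VitD 2, and 3909.7 to 5288 CPM in the others. Myh7 alone did not separate these libraries, with 2653, 2514 and 2175 CPM there, 2331 CPM in pMT 3 and 2303 CPM in VitD 3. Tnnt1 had 1021, 1096 and 1021 CPM there and at most 704 CPM in the others. Tnni1 had 817, 811 and 804 CPM there and at most 717 CPM in the others. The 5 adipocyte markers summed to 405, 383 and 328 CPM in the same order, where the others lay between 171 and 281 CPM except VitD 1 at 437 CPM. Most of that sum was Fabp4 (152 to 407 CPM over all libraries). Adipoq, Plin1, Lep and Cidec were at most 22.7, 3.34, 1.45 and 4.84 CPM, so the sum does not show a difference in adipocytes. The length correlation was lowest in the 3 libraries, as given above. Their TMM factors were 0.849 to 0.867, close to that of pMT/VitD 3 (0.867), where the highest of all was 1.20. The part of these measures in the levels of Strit1, LOC102551352 and Crnde was not tested.

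**Figure D5:**
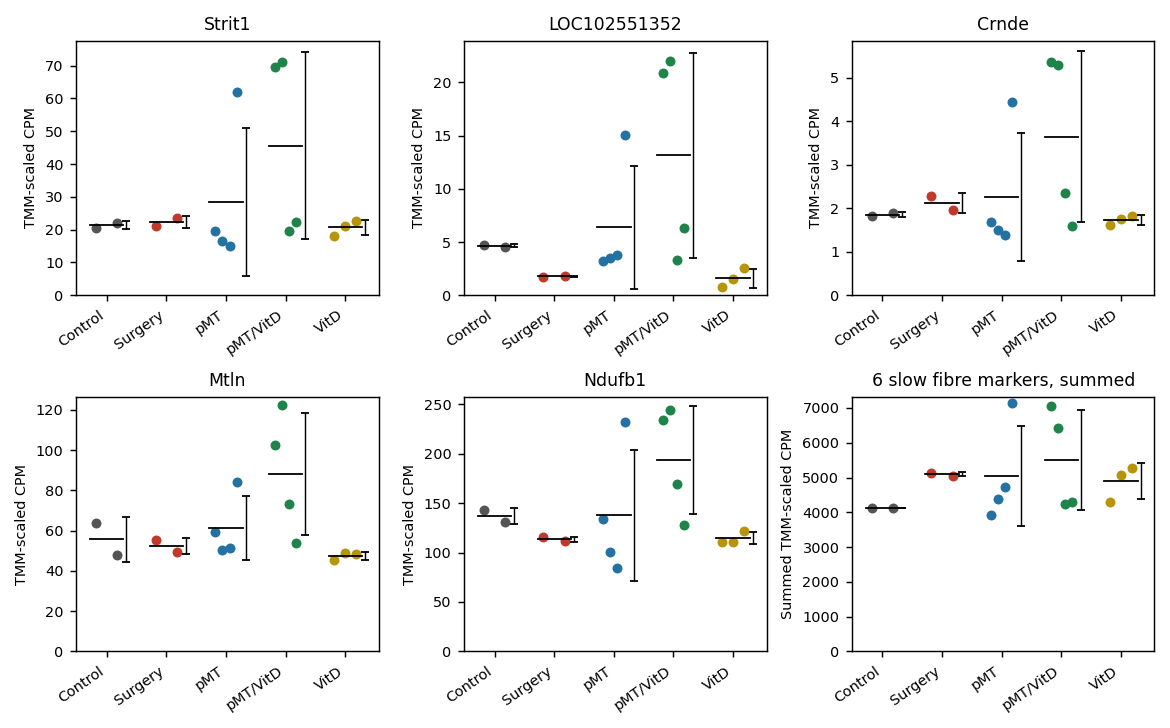
TMM-scaled CPM of 5 members and the summed CPM of 6 slow fibre markers in each library, by group, with 1 point per library, a line at the group mean and an error bar of 1 SD. For Strit1, pMT 4 stands at 62.1 CPM among pMT libraries that otherwise reach 19.6 CPM, and pMT/VitD 1 and 2 stand at 69.5 and 71.1 CPM.

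Members differed widely in how steady they were. The ratio of the highest to the lowest CPM over the 15 libraries had a median of 2.50, was under 2 in 51 members and over 4 in 39, and was lowest at 1.30 in Oip5-as1. LOC102553017 had no count in pMT 1 and 2.37 CPM in pMT/VitD 2. The highest library was pMT/VitD 2 for 57 members and pMT/VitD 3 for 35, and the lowest was VitD 1 for 71 and pMT 3 for 44. LOC100909396 reached 2.02 CPM in control 1 and 0.0468 CPM in VitD 1, and LOC103692348 reached 5.44 CPM in pMT 4 and 0.152 CPM in VitD 1.

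Few members carried the name of a known regulatory lncRNA. Oip5-as1, also called Cyrano, which directs decay of a microRNA, had 98.1 to 127 CPM and no called difference (edgeR adjusted p across the 5 groups = 0.654). Tug1, a widely expressed nuclear and cytoplasmic RNA, had 9.08 to 14.1 CPM (edgeR adjusted p = 0.112). No nuclear body RNA on the list (Malat1, Neat1, Rmrp, Rpph1, Rn7sk and Terc), no listed dosage or imprinting RNA and no miRNA host gene was found among the members by name. The lists were matched by symbol, so a known RNA under a locus name would be missed. This does not show that these RNAs were low in the muscle. Of 3 members with antisense or opposite-strand names, Oip5-as1, Lppos and Thumpd3-as1, none was called with all libraries, and Lppos was among the 58 called between pMT/VitD and pMT without both libraries numbered 4 (log2 difference 0.69, edgeR adjusted p = 0.00612). The brain cytoplasmic RNA Bc1, a short RNA, had a mean of 26.6 TPM and 1.27 to 9.18 CPM, with VitD 1 the highest. The other 190 members carry locus names, and 17 of the 18 members called across the 5 groups are among them in the table, Fndc4 included under its locus name.

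Genes whose proteins act with such RNAs were counted in the same way, with all libraries. None of 15 paraspeckle proteins was called in any comparison, where the background ran from 0.0% to 8.67% over the pairwise comparisons, so lists of this size would hold few calls at the background. Hnrnpk, Tardbp and Nono, RNA-binding proteins at 75.9, 51.3 and 29.1 mean TPM, had log2 differences between surgery and control of -0.01, -0.14 and 0.17 (edgeR adjusted p = 0.978, 0.636 and 0.514). None of 16 genes of nonsense-mediated decay, which removes transcripts with premature stops and many host gene transcripts, was called, against the same background. Etf1, Magoh and Eif4a3 were the most abundant of these, at 43.9, 35.2 and 32.9 mean TPM. Among the snoRNA particle genes, Nop10, Dkc1 and Nhp2 had 88.1, 29.1 and 23.3 mean TPM and no called difference.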

How the data were processed

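RNA of 15 libraries was sequenced as paired-end reads (NovaSeq). According to the study's methods and processing notes, raw read counts per gene were obtained by the authors with StringTie 2.1.3b, after trimming (Trimmomatic 0.38), alignment (HISAT2 2.1.0, build rn6) and sorting (SAMtools 1.9). The authors also deposited TPM, used here for ranking and for levels between genes, and FPKM, not used here. Handling of strand and of reads matching several genes is not given in the sources used here. No other sample's columns were used.

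Counts were tested with edgeR 4.0.16 in R 4.3.3 (glmQLFit with robust = TRUE, glmQLFTest, TMM factors, filterByExpr) on all 15 libraries, with Benjamini-Hochberg adjustment over 17201 genes and a threshold of 0.05. All adjusted p in the text are from this quasi-likelihood test unless another is named. Values ± SE are log2 differences. CPM are TMM-scaled. DESeq2 1.42.0 and the exact test of edgeR, which the study's methods name, were alternatives, as were other scalings and filters, the replicate number as a block, removal of the length trend (lowess span 0.3) and leaving out each library. The members and lists were chosen with earlier results of these data known. Named genes were the 10 of highest mean TPM, the 10 of smallest p across the 5 groups, up to 4 called per direction and comparison (those averaging 0 or more in log2 CPM), and listed genes. Others were named after their values were seen. Some genes of the marker and protein lists are not reported here and were left out of the sums and counts. H19 was left out by symbol and Meg3 by gene ID. GRCr8 tables from RefSeq gave names, neighbours and start sequences only. On simulated counts for pMT against surgery (16944 genes), the test recovered 42% of 2-fold and 82% of 4-fold changes with 5 false calls. On the same counts DESeq2 made 31 false calls and the exact test made 67. These counts were drawn from a negative binomial model with edgeR's own estimates of spread. They held changes in the pMT group only and no split within a group. The data do hold such splits, so the simulation does not tell which calls of the 3 tests are false in the data.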

Additional observations from a re-analysis of the deposited data

Results flagged for a closer look

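Among the named members, 6 values stood far from the other 3 libraries of a group of 4, by Dixon's criterion (gap to the nearest library relative to the range) (104 sets of 4 libraries were examined). The criterion marks about 1 set in 20 by chance, and LOC100909539, LOC102551352, Crnde and LOC103693349 were named after their values were seen, so the number marked cannot be compared with chance. Of these, 5 were in pMT 4. Strit1 had 62.1 CPM there, where the remaining pMT libraries reached 15.1 to 19.6 CPM. Gas5 had 22.3 CPM against 15.8 to 16.8 CPM. LOC100909539, which holds Snord123, had 6.66 CPM against 3.30 to 3.79 CPM. LOC102551352 had 15.1 CPM against 3.18 to 3.79 CPM, and Crnde had 4.46 CPM against 1.38 to 1.68 CPM. The remaining value was 8.78 CPM of LOC103693349 in pMT 1, against 10.3 to 10.6 CPM. The cause was not tested.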

How the results depend on the processing

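Counts of called members are given in the order across the 5 groups, surgery against control, VitD against control, pMT against surgery and pMT/VitD against surgery, where all libraries gave 18, 3, 16, 2 and 9. Except where given, the share of all genes called under an alternative is not reported. A larger count of members there does not show that the members stood out. DESeq2 gave 46, 9, 28, 8 and 24, and 1 for pMT/VitD against pMT. The exact test gave 73, 27, 13 and 25 for the last 4. Library size alone gave 7, 6 and 16 for surgery against control, pMT against surgery and pMT/VitD against surgery. Removing the length trend gave 5, 25, 4 and 18 for the last 4. Without both libraries numbered 4 the counts were 73, 8, 30, 8 and 48, and 58 for pMT/VitD against pMT. With the length trend removed as well, an alternative chosen after seeing the data, they were 51, 11, 40, 6 and 36, and 17. In the same order, 24.1%, 5.38%, 18.7%, 3.63%, 16.5% and 4.0% of all genes were then called. Leaving out each library in turn gave 7 to 36, 0 to 14, 0 to 33, 1 to 10 and 1 to 26, and 0 in the comparisons of VitD with surgery and of pMT/VitD with pMT. The causes were not tested. With the replicate number as a block the counts were 9, 1, 15, 2 and 4. The numbers did not pair the libraries: same-numbered deviations had a median correlation of 0.0103 (24 pairs, -0.499 to 0.169). Of 746 values of 30 called differences under alternatives, 557 kept direction and call, 189 lost the call and 0 reversed. Ranking by mean CPM kept 156 of the 200 members. Members with few reads, such as LOC108352323 in the controls, are limited by counting error.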
